A study of Mus musculus with 6 samples.

Results

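Pericardial adhesion in mice was followed through 8 genes that take up, make or break down arginine and its product ornithine: Arg1, Arg2, Nos2, Ass1, Asl, Odc1, Slc7a2 and Oat. They were chosen by symbol, 8 of the 23420 genes in each of the 2 deposited tables, and all 8 stood in both. C57BL/6 male mice of 8 weeks received talc, a mineral powder, suspended in saline and placed in the pericardial cavity through the diaphragm. Adhesion tissue, named so by the labels, was taken at days 1, 3 and 7, and whole heart at days 0, 3 and 7. Formed adhesions join the heart surface to the pericardium. The paper describes epicardial erosion, bleeding and inflammatory cells in the early stage, and collagen that joins these layers later. Whether the day 1 sample was already scar was not tested. Each of the 6 conditions was 1 library of total RNA depleted of ribosomal RNA with no transgene named in the labels, and the number of animals behind a library is not stated in the labels or the methods. The day 0 heart is the reference of the heart series. By the days used here the adhesion series has no library before day 1. The labels of that first adhesion library give day 1 in the title and stage but day 0 in the source. Day 1 was used, whereas a figure legend of the paper names days 0, 3 and 7 for both tissues, with fold changes over day 0. Ratios over day 1 in adhesion tissue rest on that choice. For the first heart library the labels give day 0, which was used, whereas a column heading in the study's supplement gives day 1.

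Arginine stands at a branch point in inflamed tissue. Arginases hydrolyse it to ornithine and urea, and nitric oxide synthases oxidise it to citrulline and nitric oxide, so both kinds of enzyme draw on the same substrate. Ornithine feeds polyamine synthesis through Odc1 and proline, an amino acid abundant in collagen, through Oat, while citrulline is turned back into arginine by Ass1 and Asl. In mouse macrophages interleukin 4 and interleukin 13 are known inducers of Arg1, and interferon gamma with microbial products is the known inducer of Nos2, which made the pair the classical markers of alternatively and classically activated macrophages.

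The libraries held between 1615922 and 1844565 reads in genes, and between 14852 and 16194 genes had a read. Levels are given as reads and as CPM, counts per 1000000 reads in genes, and 3 reads, the floor used here, came to between 1.63 and 1.86 CPM. Intervals in parentheses are exact 95% intervals that cover counting error only, and with 1 library per condition no difference could be set against the spread between animals. No p-value is therefore given. A list of 12 cardiomyocyte genes summed to 28627, 522 and 12607 CPM in adhesion tissue at days 1, 3 and 7, and to between 120709 and 149739 CPM in heart. The day 3 adhesion library thus stood apart from the other adhesion libraries in its muscle RNA. In adhesion tissue 1 gene, Ttn, made up 22246, 292 and 8873 CPM of this sum, and Myh6 made up 2868, 110 and 1925 CPM. A list of 13 skeletal muscle genes followed the same order there, at 8669, 17.9 and 2874 CPM. How far skeletal muscle added to the cardiomyocyte sum was not tested.

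Arg1, the cytosolic arginase (mm10 chromosome 10, 24915207 to 24927470, minus strand, 8 exons), showed the widest range of the 8 genes. It had 1531, 2873 and 131 reads in adhesion tissue at days 1, 3 and 7, which were 855, 1778 and 71.0 CPM. In heart it had 2, 79 and 18 reads at days 0, 3 and 7, which were 1.17, 43.6 and 9.90 CPM. The day 3 library was the highest in both tissues, and every adhesion library was above every heart library.

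On the deposited scale Arg1 in adhesion tissue was 2.09-fold higher (1.97 to 2.23) at day 3 than at day 1. At day 7 it was 11.8-fold lower (9.83 to 14.2) than at day 1 and 24.6-fold lower (20.7 to 29.6) than at day 3. The day 1 library of these ratios stood apart as well: 10 thymocyte and T cell markers summed to 296, 39.0 and 27.6 CPM in adhesion tissue at days 1, 3 and 7, and 6 adipocyte markers to 1733, 914 and 289 CPM. The collagen gene Col1a1 had 788, 18262 and 30606 reads in adhesion tissue at days 1, 3 and 7. Ratios over day 1 thus compare libraries that also differ in these markers. The part of that difference in the Arg1 ratios was not tested. In heart Arg1 was 33.1-fold higher (8.87 to 278) at day 3 and 7.80-fold higher (1.87 to 69.3) at day 7 than at day 0, both against 2 reads. From these bulk tissues fewer cells that carry a gene and less of its RNA per cell cannot be told apart.

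**Figure D1:**
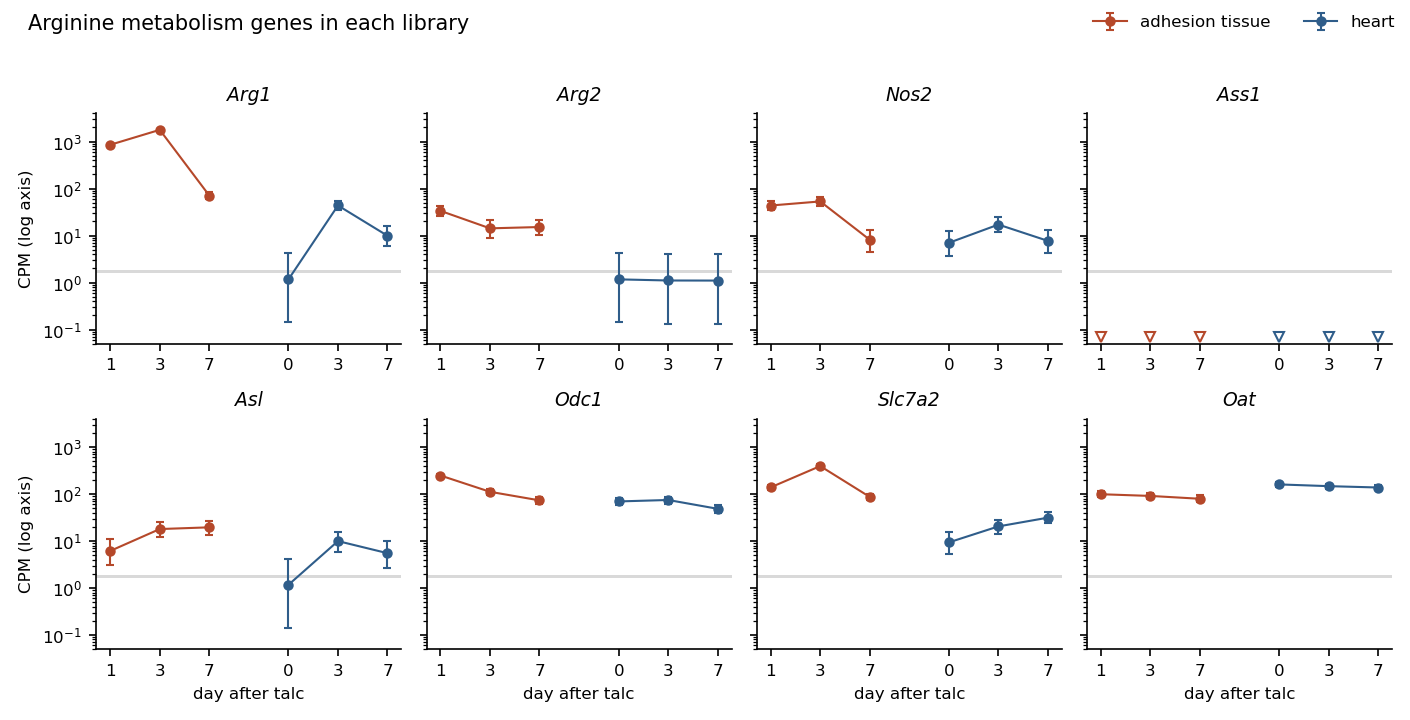
Level of each of the 8 genes in the 6 libraries, in CPM on a log axis, with the day after talc on the horizontal axis, adhesion tissue in red and heart in blue. Bars are 95% Poisson intervals of the counts, the grey band marks the level of 3 reads, open triangles at the foot mark 0 reads, and Arg1 stands at 1778 CPM in the day 3 adhesion tissue and 1.17 CPM in the day 0 heart.

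Marker lists of 3 cell types were set beside Arg1. Of 14 macrophage genes, 13 or 14 had a read in each library (Marco was at 0 in the day 0 heart), and their sum was 7300, 12235 and 13830 reads in adhesion tissue and 675, 2404 and 3026 reads in heart. In adhesion tissue this sum came to 7498 CPM at day 7 against 7572 CPM at day 3, but 1 gene, Lyz2, which encodes lysozyme, made up 4146 CPM of it at day 7 against 3271 CPM at day 3. The median log2 ratio of the 14 genes between these days was -0.36, with 0 of them over 3-fold higher and 2 lower. Per 100 macrophage marker reads Arg1 had 21.0 (19.8 to 22.2), 23.5 (22.5 to 24.5) and 0.947 (0.791 to 1.12) reads in adhesion tissue. The same quantity in heart was 0.296 (0.0358 to 1.07), 3.29 (2.59 to 4.11) and 0.595 (0.352 to 0.942) reads. On this list the day 3 libraries remained the highest in both tissues. Itgam, which the paper counts among its neutrophil markers, gave 2082 of the marker reads in adhesion tissue at day 1 and 1675 at day 3. The order of days 1 and 3 in adhesion tissue depends on whether Itgam is counted. Neutrophil markers (11 genes) summed to 2618, 733 and 647 CPM in adhesion tissue and 30.9, 124 and 107 CPM in heart, and of them Elane was at 0 in 5 libraries. Fibroblast markers (10 genes) summed to 2593, 28800 and 45817 CPM in adhesion tissue, highest at day 7 where Arg1 was lowest, and to 1732, 12079 and 12886 CPM in heart. The part of neutrophils and fibroblasts in the Arg1 levels was not tested.

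Defining genes of hepatocytes, the cells known for high Arg1, were at or near 0. Of 12 hepatocyte genes between 6 and 9 were at 0 in each library, among them Cyp3a11 and Ttr in all 6, and the whole list summed to 12 reads in each adhesion library and to 19, 11 and 15 reads in heart. Lung epithelium markers (8 genes) summed to 335, 55.1 and 696 CPM in adhesion tissue and 0.584, 8.28 and 239 CPM in heart. In the day 0 heart 7 of the 8 were at 0. At day 3 in adhesion tissue 83 of their 89 reads were of Napsa, with Sftpc, Sftpa1, Sftpd and Lamp3 at 0. The part of liver and lung in the Arg1 levels was not tested.

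**Figure D2:**
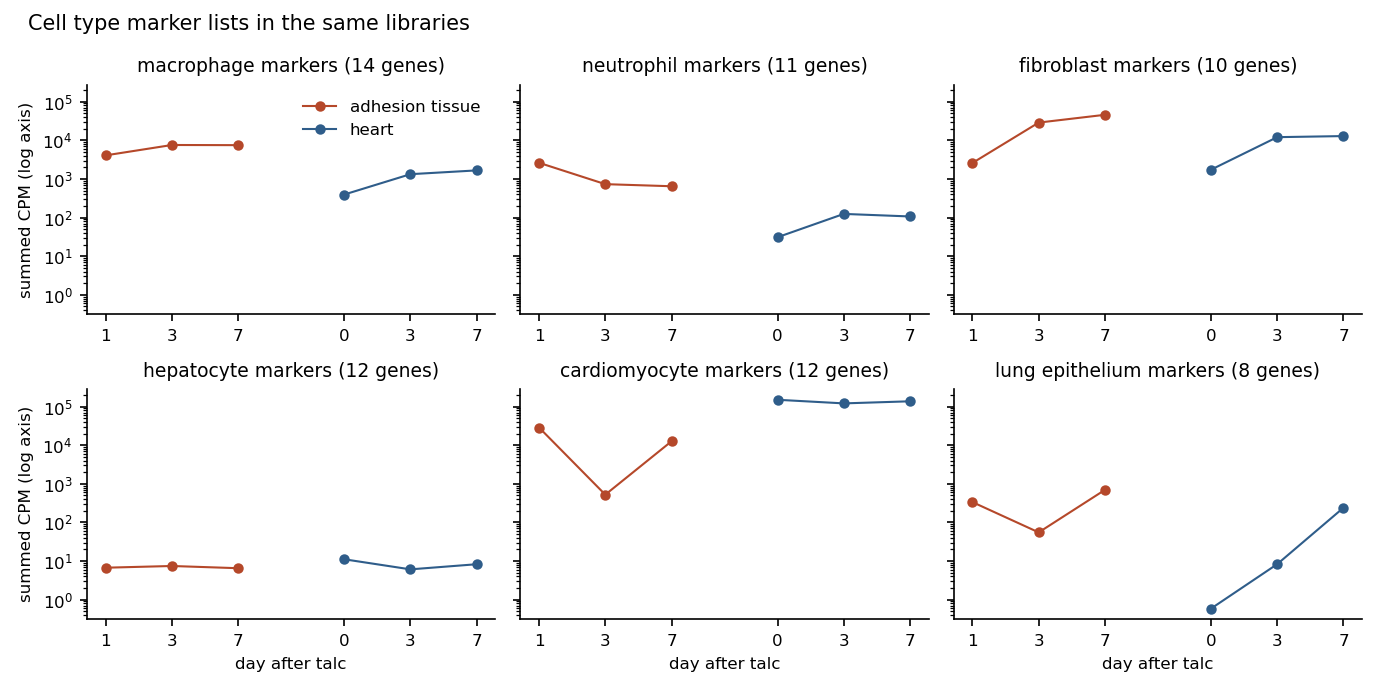
Summed CPM of 6 cell type marker lists on a log axis in the same libraries, with the day after talc on the horizontal axis, adhesion tissue in red and heart in blue. Macrophage genes summed to 7498 CPM in adhesion tissue at day 7, of which Lyz2 made up 4146 CPM, hepatocyte genes lay between 6.08 and 11.1 CPM, and cardiomyocyte genes dropped to 522 CPM in the day 3 adhesion library.

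Nos2, the inducible nitric oxide synthase (chromosome 11, 78920859 to 78960124, plus strand, 27 exons), spanned a narrower range. It had 78, 86 and 15 reads in adhesion tissue (43.6, 53.2 and 8.13 CPM) and 12, 31 and 14 reads in heart (7.01, 17.1 and 7.70 CPM). The day 1 and day 3 adhesion libraries were the high ones, and the day 7 adhesion library lay in the range of the heart. Nos2 in adhesion tissue at day 3 was 1.23 times its day 1 value (0.895 to 1.69), a difference within counting error. At day 7 it was 5.23-fold lower (2.99 to 9.79) than at day 1 and 6.44-fold lower (3.70 to 12.0) than at day 3. In heart it was 2.17-fold higher (1.08 to 4.63) at day 3 than at day 0, and at day 7 it was 1.01 times the day 0 value (0.434 to 2.39). Per 100 macrophage marker reads Nos2 had 1.07 (0.844 to 1.34), 0.703 (0.562 to 0.869) and 0.108 (0.0607 to 0.179) reads in adhesion tissue and 1.78 (0.914 to 3.13), 1.29 (0.874 to 1.84) and 0.463 (0.253 to 0.777) reads in heart. In each tissue the day 7 interval lay below the others, while those of the earlier days overlapped.

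The ratio of Arg1 to Nos2 within a library does not depend on how that library was scaled. Per kilobase of exon it was 53.0 (42.2 to 67.5), 90.2 (72.8 to 113) and 23.6 (13.8 to 43.4) in adhesion tissue at days 1, 3 and 7. In heart the ratio was 0.450 (0.0489 to 2.02), 6.88 (4.49 to 10.8) and 3.47 (1.63 to 7.55) at days 0, 3 and 7. Arg1 exceeded Nos2 in 5 of the 6 libraries, and in the day 0 heart the 2 genes could not be ordered. Every adhesion interval lay above every heart interval. Day 3 had the highest ratio in each tissue, and only in heart did its interval overlap that of day 7.

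**Figure D3:**
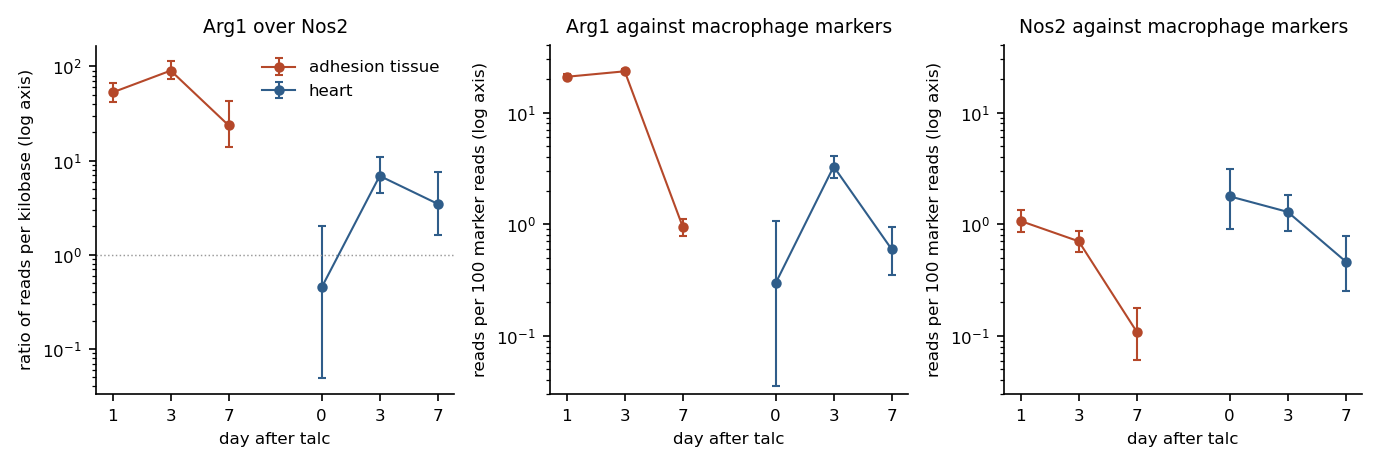
Left, the ratio of Arg1 to Nos2 reads per kilobase in each library; middle and right, Arg1 and Nos2 reads per 100 reads of the 14 macrophage marker genes, all on log axes against the day after talc, with adhesion tissue in red and heart in blue. Bars are exact 95% counting intervals, and the dotted line marks a ratio of 1, which the adhesion libraries (23.6 to 90.2) lie above and the interval of the day 0 heart (0.450) includes.

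Arg2, the mitochondrial arginase (chromosome 12, 79130788 to 79156301, plus strand, 8 exons), followed another course than Arg1. It had 60, 23 and 28 reads in adhesion tissue and 2 reads in each of the 3 heart libraries, so the day 1 adhesion library was the high one and heart stayed under the floor. In adhesion tissue Arg2 was 2.34-fold lower (1.42 to 3.96) at day 3 and 2.16-fold lower (1.36 to 3.51) at day 7 than at day 1. Neutrophil markers were also highest in that day 1 library, at 2618 CPM. Among adhesion libraries, thymocyte and T cell, adipocyte, erythroid, skeletal muscle and cardiomyocyte markers were highest there too. Macrophage, fibroblast and endothelial markers were lowest there. The part of these cell types in the Arg2 level was not tested. On the opposite strand Vti1b shares 285 exon bases with Arg2, 20.1% of its exon length, and whether strand was used in counting is not stated.

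Slc7a2, a cationic amino acid transporter that brings arginine into macrophages (chromosome 8, 40862367 to 40922070, plus strand, 13 exons), had 248, 635 and 160 reads in adhesion tissue and 16, 37 and 57 reads in heart. In CPM these were 139, 393 and 86.7 in adhesion tissue and 9.34, 20.4 and 31.3 in heart. Adhesion tissue was highest at day 3 and heart at day 7. At day 3 adhesion tissue was 2.86-fold higher (2.46 to 3.32) than at day 1, and at day 7 it was 4.46-fold lower (3.74 to 5.34) than at day 3. The heart was 3.09-fold higher (1.75 to 5.76) at day 7 than at day 0 and 1.59-fold higher (1.03 to 2.48) than at day 3, the last interval reaching below 1 in CPM (0.997 to 2.39). Slc7a1, the cationic transporter found in most cells, had 137, 107 and 82 reads in adhesion tissue and 121, 122 and 124 reads in heart.

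Ass1, which joins citrulline to aspartate (chromosome 2, 31470270 to 31520670, plus strand, 16 exons), was listed at 0 in all 6 libraries. The row of Gm5424 was also listed at 0 in all 6, and in the deposited tables its 16 exons lie on those of Ass1, on the same strand, from 31470308 to 31520629. They share 1552 of the 1631 exon bases of Ass1, or 95.2%. RefSeq on GRCm38.p6 places Gm5424 elsewhere, on chromosome 10 from 62071022 to 62072571, as a transcribed pseudogene. The transcripts of both genes in GENCODE on GRCm38 are alike in 1234 of 1240 aligned bases (99.5%), with a longest identical run of 398 bases. To show how near the copies are, a stretch of 100 bases is printed with the most differences that any such stretch holds, 2, which stand in capitals (Ass1 transcript bases 567 to 666, Gm5424 transcript bases 365 to 464):
Ass1: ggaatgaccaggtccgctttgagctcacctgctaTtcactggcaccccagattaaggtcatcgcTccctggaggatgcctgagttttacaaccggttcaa
Gm5424: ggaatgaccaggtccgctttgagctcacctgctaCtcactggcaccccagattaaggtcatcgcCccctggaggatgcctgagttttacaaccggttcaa
No level of Ass1 is therefore given. Of the 443 genes in the tables that share at least 90% of their exon bases with another row on the same strand, 422 (95.3%) were at 0 in all 6 libraries, against 21.2% of the 22541 genes that share none. Whether reads that fall in both rows were set aside in counting was not tested. Likewise among 2 polyamine genes, Amd1, which shares 99.7% of its exon bases with Amd2, had 0 reads, and Oaz1, which shares 89.5% with Oaz1-ps, had 2 reads over all libraries.

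**Figure D4:**
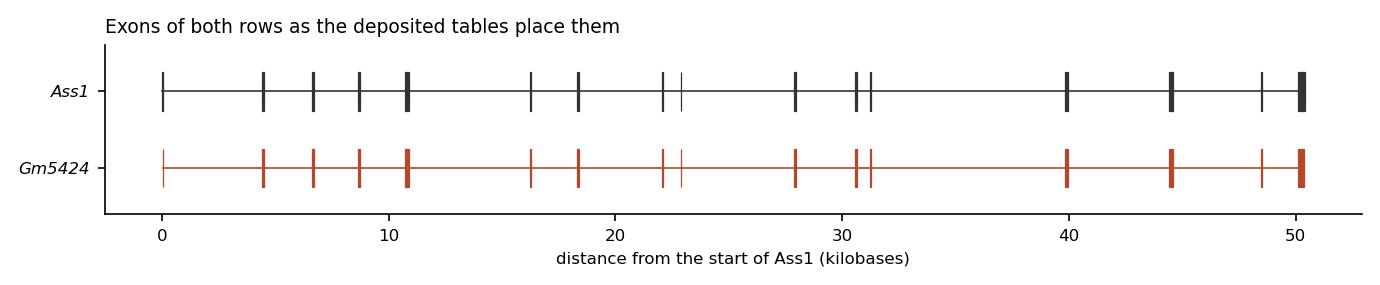
Exons of Ass1 (upper row) and Gm5424 (lower row) as the deposited tables place them, drawn to scale against the distance from the start of Ass1 in kilobases. All 16 exons of Ass1 have a counterpart, and 1552 of its 1631 exon bases are shared.

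Asl, the next enzyme, which splits argininosuccinate into arginine and fumarate (chromosome 5, 130011503 to 130024331, minus strand, 17 exons), shares no exon base with another row. It had 11, 29 and 36 reads in adhesion tissue and 2, 18 and 10 reads in heart, with the first library of each tissue the low one. Asl in adhesion tissue was 2.94-fold higher (1.43 to 6.53) at day 3 and 3.25-fold higher (1.62 to 7.08) at day 7 than at day 1. In heart it was 7.54-fold higher (1.81 to 67.0) at day 3 than at day 0, and the ratio at day 7, 4.33 (0.923 to 40.7), was within counting error.

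Odc1, ornithine decarboxylase and the entry to polyamine synthesis (chromosome 12, 17544873 to 17551502, plus strand, 12 exons), had 443, 180 and 135 reads in adhesion tissue and 119, 135 and 88 reads in heart. The day 1 adhesion library was the highest and the day 7 heart library the lowest. Odc1 in adhesion tissue was 2.20-fold lower (1.85 to 2.64) at day 3 and 3.30-fold lower (2.72 to 4.03) at day 7 than at day 1. In heart it was 1.56-fold lower (1.17 to 2.08) at day 7 than at day 0, and at day 3 it was 0.951 times the day 0 value (0.738 to 1.23).

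Oat, the ornithine aminotransferase of mitochondria (chromosome 7, 132557475 to 132576398, minus strand, 10 exons), varied least of the 7 genes with reads. It had 177, 147 and 146 reads in adhesion tissue and 274, 266 and 250 reads in heart, and no other member had more reads in every heart library than in any adhesion library. None of its 3 ratios between adhesion days had an interval that left out 1. In heart it was 1.23-fold lower (1.03 to 1.46) at day 3 and 1.26-fold lower (1.06 to 1.51) at day 7 than at day 0, but in CPM both intervals included 1 (0.773 to 1.09 and 0.721 to 1.02).

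**Figure D5:**
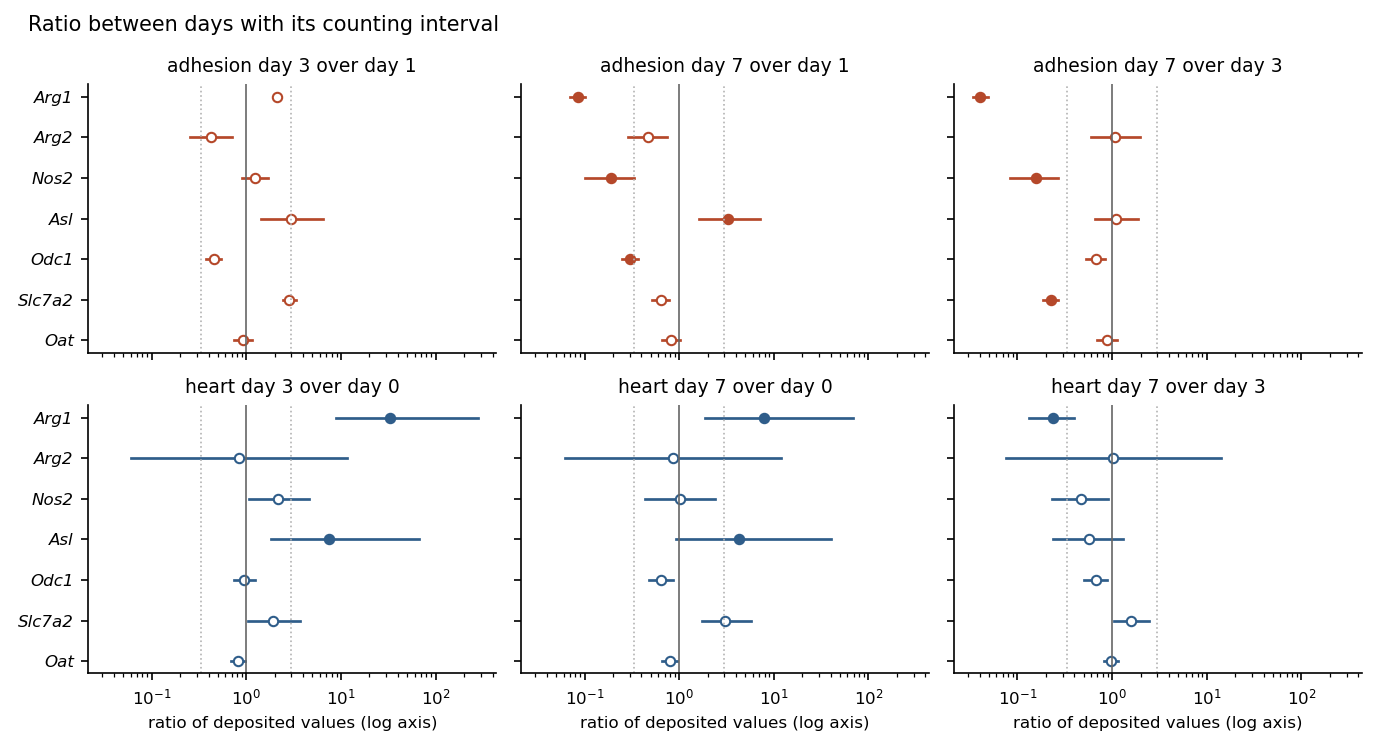
Ratio of deposited values between days for the 7 genes with reads, on a log axis, with exact 95% counting intervals; upper row adhesion tissue, lower row heart. Filled points passed 3-fold with a pseudocount of 1, the solid line marks 1 and the dotted lines 3-fold in each direction, and in adhesion tissue at day 7 over day 3 only Arg1, Nos2 and Slc7a2 passed.

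Calls at 3-fold were counted with a pseudocount of 1 over the 7 members with a read. In adhesion tissue at day 3 over day 1, 0 members were higher and 0 lower, beside 3.78% of all genes with a read that were higher and 6.7% that were lower. At day 7 over day 1 Asl was higher (1 of 7, against 5.13% of all genes) and Arg1, Nos2 and Odc1 were lower (3 of 7, against 4.88%). Arg1, Nos2 and Slc7a2 were lower at day 7 over day 3 (3 of 7, against 1.82%) and 0 were higher (against 4.88%). In heart Arg1 and Asl were higher at day 3 over day 0 (2 of 7, against 6.66%) and again at day 7 over day 0 (2 of 7, against 6.84%), with 0 lower in either (against 1.77% and 1.52%). Arg1 was the 1 member lower in heart at day 7 over day 3 (against 2.37%), and 0 were higher (against 2.93%). The calls of Asl at day 7 were lost with a pseudocount of 5 in both tissues, and in CPM in adhesion tissue. In heart at day 7 over day 0 the interval of Asl without a pseudocount (0.923 to 40.7) included 1. Slc7a2, 3.09-fold higher there without a pseudocount (1.75 to 5.76), was not called with it. The median log2 ratio of the members in adhesion tissue was 0.30 at day 3 over day 1, -1.08 at day 7 over day 1 and -0.58 at day 7 over day 3, where that of all genes was -0.10, -0.05 and 0.02. In heart it was 0.92 at day 3 over day 0, 0.01 at day 7 over day 0 and -0.56 at day 7 over day 3. The members were chosen with results of these libraries known, and these counts describe them.

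At matched days adhesion tissue was set beside heart in CPM, since the 2 tables were scaled separately. Arg1 was 40.7-fold higher in adhesion tissue at day 3 (32.6 to 51.6) and 7.17-fold higher at day 7 (4.37 to 12.5). Slc7a2 was 19.2-fold (13.8 to 27.6) and 2.77-fold (2.03 to 3.81) higher, and Nos2 was 3.11-fold higher at day 3 (2.04 to 4.85) and 1.06 times the heart value at day 7 (0.475 to 2.36). For these 3 genes the 2 tissues were thus nearer to each other at day 7. Arg2 was 12.9-fold (3.18 to 113) and 13.8-fold (3.48 to 120) higher, against 2 heart reads each time. Odc1 was 1.49-fold and 1.51-fold higher, Asl had ratios of 1.81 (0.969 to 3.45) and 3.55 (1.73 to 8.02), and Oat was 1.61-fold and 1.74-fold lower in adhesion tissue.

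Levels of different genes were compared in RPKM, CPM per kilobase of exon. Arg1 led in all 3 adhesion libraries, with 579, 1204 and 48.1 RPKM. At day 1 Odc1 came next (97.2 RPKM), at day 3 Slc7a2 (50.0 RPKM) and at day 7 Oat (36.7 RPKM). At day 3 the 3 genes after Arg1, which were Slc7a2, Odc1 and Oat, lay within counting error of the next among the 3. Oat led in all 3 heart libraries, with 74.2, 68.2 and 63.8 RPKM, and Arg1 at 29.5 RPKM and Odc1 at 29.3 RPKM could not be ordered in the day 3 heart. In the day 0 heart Nos2, Slc7a2, Arg2, Arg1 and Asl, all under 2 RPKM, could not be ordered among neighbours either.

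The surrounding pathway was examined through lists of genes outside the 8. Beside the 3-fold counts of these lists, between 1.82% and 6.7% of all genes passed in each direction of an adhesion comparison. In heart comparisons it was between 1.52% and 6.84%. The urea cycle genes Cps1, Otc and Nags, which the liver uses beside Arg1, had at most 2 reads each in any library. Among 8 other arginine and ornithine transporters 0 were over 3-fold in any adhesion comparison and 1, Slc25a2, in heart, with 3 reads at day 7 and 0 at the earlier days. Slc3a2, the heavy chain that several amino acid transporters need, was 1.32-fold lower (1.13 to 1.54) in adhesion tissue at day 7 than at day 1. Slc7a7, which moves arginine out of cells, had 49, 38 and 29 reads in adhesion tissue and 11, 25 and 10 reads in heart, and shares 9.10% of its exon bases with Oxa1l on the opposite strand. Of 12 genes for the other nitric oxide synthases, their partners and their cofactor, 1 passed 3-fold in adhesion tissue at day 7 over day 1, Nostrin, a trafficking partner of endothelial Nos3, with 27 reads against 6 at day 1 (4.47-fold higher, 1.81 to 13.2). Nos3 itself had 81, 37 and 41 reads in adhesion tissue and 108, 112 and 113 reads in heart, and was 1.99-fold lower (1.35 to 2.97) at day 7 than at day 1 in adhesion tissue. It shares 7.13% of its exon bases with Atg9b on the opposite strand. Nos1, the neuronal form, had at most 3 reads in a library, and passed 3-fold in adhesion tissue at day 7 over day 3 with 3 reads against 0. In heart 0 of the 12 passed. Ddah2 and Ddah1, which break down methylated arginines that inhibit nitric oxide synthases, were 2.70-fold (1.43 to 5.39) and 2.35-fold (1.40 to 4.06) higher at day 7 than at day 1 in adhesion tissue.

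Downstream of ornithine, 0 of 13 polyamine genes with a read were over 3-fold in adhesion tissue at day 3 over day 1, and 0 of 14 at day 7. The median log2 ratio of the list was -0.44 at day 3 over day 1 and 0.21 at day 7 over day 1. That of all genes was -0.10 and -0.05. The list as a whole was therefore not lower at day 7. Below 3-fold several of its genes, Srm, Smox and Eif5a included, had like Odc1 their highest level at day 1. Srm, spermidine synthase, had 160, 65 and 59 reads and was 2.73-fold lower (2.01 to 3.74) at day 7 than at day 1, Smox, spermine oxidase, had 221, 99 and 104 reads and was 2.14-fold lower (1.69 to 2.73), and Eif5a, the factor that carries the spermidine-derived hypusine, was 1.81-fold lower (1.62 to 2.02). Sat1, the acetyltransferase that starts polyamine export, was 1.37-fold higher (1.14 to 1.64) at day 7 than at day 1. Azin1, the antizyme inhibitor that protects Odc1, had 266, 180 and 261 reads. It was 0.755 times its day 1 value at day 3 (0.622 to 0.916) and 0.975 times at day 7 (0.819 to 1.16). In heart Srm was 2.45-fold higher (1.31 to 4.88) at day 3 than at day 0 and 3.31-fold lower (1.70 to 6.91) at day 7 than at day 3, and Oaz3, with 0 reads at day 7 against 2 at day 0, was the other polyamine gene past 3-fold there.

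Among 5 proline genes none passed 3-fold in any of the 6 comparisons. Aldh18a1, which makes the proline precursor from glutamate, was 2.35-fold higher (1.28 to 4.56) in heart at day 3 than at day 0. The proline-degrading Prodh and Aldh4a1 were 1.59-fold lower (1.11 to 2.28) and 1.52-fold lower (1.26 to 1.83) there. CPM moves the ratios of this comparison upward by 0.17 in log2, and the interval of Prodh then includes 1. The pair of creatine synthesis genes were Gatm, which moves the amidino group of arginine to glycine, and Gamt. In adhesion tissue Gatm had 20, 111 and 49 reads and Gamt 3, 18 and 12 reads. Both were over 3-fold higher at day 3 than at day 1 (2 of 2, against 3.78% of all genes), Gamt on few reads. Gatm was 6.20-fold higher (3.83 to 10.5) at day 3, which was also the day of most Arg1.

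Signals and factors known to induce Arg1 formed a list of 10 genes. In adhesion tissue at day 7 over day 1, 0 were over 3-fold higher (against 5.13% of all genes). Of the 8 with a read 2, Cebpb and Il6, were lower (against 4.88%). In this list the cytokine genes Il4 and Il13 had at most 2 reads in any library. Their shared receptor gene Il4ra had 780, 686 and 357 reads in adhesion tissue and 66, 228 and 92 reads in heart. Il4ra was 2.90-fold higher (2.19 to 3.87) in heart at day 3 than at day 0. Its heart order, highest at day 3 and lowest at day 0, was that of Arg1 but also of Nos2 and Asl. In adhesion tissue Il4ra was highest at day 1 and Arg1 at day 3. Cebpb, a transcription factor gene known to act on Arg1, was 3.09-fold lower (2.55 to 3.76) at day 7 than at day 1 in adhesion tissue, and Hif1a, which encodes an oxygen-responsive factor of the same list, was 1.66-fold lower (1.50 to 1.84). Il6 had 53, 13 and 1 reads in adhesion tissue and 0, 13 and 0 reads in heart. Of 10 genes known to induce Nos2, 9 had a read in each heart comparison with day 0. Il1b and Tnf (2 of 9) passed 3-fold upward in heart at day 3 and at day 7. The shares over all genes were 6.66% at day 3 and 6.84% at day 7. Tnf had 0, 3 and 9 reads in heart, and the interval of its day 3 ratio, with a lower bound of 0.346, included 1. In adhesion tissue 1 gene of this list, Tnf, passed downward at day 3 over day 1, beside 6.7% of all genes. Ifng had 0 reads in all 6 libraries, and in adhesion tissue at day 7 Il1b was 2.92-fold lower (2.56 to 3.33) and Tnf 2.37-fold lower (1.75 to 3.24) than at day 1. Tlr4, the receptor for bacterial lipopolysaccharide, was 2.04-fold lower (1.64 to 2.55).

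Other genes of alternatively activated macrophages differed in the day of their highest level, and most were low at day 7. Of 11 such genes, 3 passed 3-fold upward and 1 downward in adhesion tissue at day 3 over day 1, beside 3.78% and 6.70% of all genes. At day 7 over day 1 it was 1 upward and 7 downward, beside 5.13% and 4.88%, and at day 7 over day 3 it was 0 upward and 6 downward, beside 4.88% and 1.82%. Chil3, a chitinase-like protein gene listed as Chi3l3, had 864, 441 and 97 reads, and the chemokine gene Ccl24 had 529, 217 and 7 reads, so both were highest at day 1. How reads of Chil3 and its close paralogs were divided is not stated. Ccl24 was 76.0-fold lower (36.6 to 190) at day 7 than at day 1. Mrc1, the mannose receptor gene, had 135, 1160 and 696 reads and was 5.12-fold higher (4.26 to 6.21) at day 7 than at day 1, the 1 gene of the list past 3-fold in that direction. Mgl2, a lectin gene, had 1, 32 and 1 reads. Arg1 thus shared the day 3 peak with Mrc1 and Mgl2, and the low day 7 value with Mgl2, Chil3 and Ccl24.

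Of 14 genes of classically activated macrophages, 0 were over 3-fold higher in adhesion tissue at either later day, and 5 at day 3 and 7 at day 7 were lower than at day 1, beside 6.70% and 4.88% of all genes. Cxcl10, an interferon-induced chemokine gene, had 109, 11 and 13 reads and Cd80, a costimulator gene, 108, 39 and 26 reads, both with the day 1 library far above the others. Nos2, which is not counted in this list, had nearly equal reads at days 1 and 3. In heart 4 of the 11 with a read passed 3-fold upward at day 3 over day 0 and 4 of 10 at day 7, beside 6.66% and 6.84% of all genes. Il1b was among them on both days, with 3, 62 and 40 reads at days 0, 3 and 7. This list shares Il6, Tnf and Il1b with the list of inducers.

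The genes nearest to each member were found among 10267 genes with at least 100 reads, by the root mean square distance of log2(CPM + 1) over the 6 libraries, each gene centred on its own mean. For Arg1 these were Cxcl13, a B cell chemokine gene, at 0.78, Chi3l3 at 0.86, and F10, Hp and Olr1 at 1.18 to 1.26. Distances were not divided by a gene's own root mean square spread, which was 3.36 for Arg1 and 1.13 for Nos2. They are therefore not comparable between members. Cxcl13 had 214, 272 and 29 reads in adhesion tissue and 0, 7 and 3 in heart. Nos2 lay nearest to Ier3, at 0.39, Nfil3, Nudcd1, Bcl11a and Ceacam1. Slc7a2 lay nearest to Padi4, at 0.26, whose enzyme turns arginine within proteins into citrulline and which had 36, 100 and 19 reads in adhesion tissue and 2, 3 and 6 in heart, followed by Hilpda, Fam196b, Dok2 and Pygl. Odc1 lay at 0.09 from Eef1e1, then Slc39a14, Mybbp1a, Nop2 and Nolc1, of which Mybbp1a, Nop2 and Nolc1 encode nucleolar proteins. The nearest genes of Asl were Kdelr3, Dclk1, Fbn1, Cacnb3 and Rfc5, those of Arg2 were Oasl1, Treml2, Pion, Tmem154 and Prkar2b, and those of Oat were Pank4, Wdr35, Ccdc47, Lonp2 and Dnm1l, at distances from 0.03 to 0.38. The 6 libraries give few points, and likeness of this kind also follows what libraries share in cell content and depth.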

How the data were processed

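Heart and pericardial adhesion tissue of mice were sequenced on a MiSeq from directional libraries depleted of ribosomal RNA, 1 library per condition. The submitters' processing notes name TopHat, Cufflinks, edgeR and mm10, without versions or roles. The authors deposited 2 tables, 1 per tissue, of 23420 genes. Their values are a normalized signal: within each library every value was a whole multiple, within 0.1 read, of 1 scaling factor between 0.882 and 1.23, so that reads were recovered for 100% of values. Gene lengths were those deposited. The tables also hold the authors' own comparison columns (a statistic, a rank and a false discovery rate), which were not used. No other per-sample columns were left out (0).

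Calls were made at 3-fold on the deposited signal with a pseudocount of 1, over genes with a read in either library. Ratios of named genes carry no pseudocount, and their exact conditional binomial 95% intervals, like the Poisson intervals of levels, cover counting error only: reads without molecular identifiers are not independent molecules. Between 6 libraries without replicates no count test was possible. Members and lists were chosen with earlier results of these data known. Beyond the 8 members, up to 4 genes of each pathway list were named by how far the nearer interval bound lay from a ratio of 1, given 20 or more reads in the larger of both libraries, together with Nos1, Nos3, Slc7a1 and Azin1, the 5 nearest genes of each member, and the marker genes. Some genes that this rule names are not reported here. Other genes named beside a count, or for sharing exons, were chosen after their values were seen. Of the list symbols Pycr3, Ly6g and Hbb-bt were not matched, and 4 were matched through RefSeq synonyms (Azin2, Chil3, Adgre1 and Hbb-bs).

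Alternatives were a pseudocount of 5, at least 10 reads over both libraries, CPM, edgeR TMM factors, DESeq2 size factors, CPM without muscle, erythroid and ribosomal precursor genes, a 2-fold threshold and intervals that leave out 1. Ass1 and Gm5424 transcripts were taken from GENCODE M21 (GRCm38) and aligned with Biopython. The scripts were tested on simulated data. Python 3.11.15, numpy 2.4.6, pandas 2.3.3, scipy 1.17.1, R 4.3.3, edgeR 4.0.16 and DESeq2 1.42.0 were used.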

Additional observations from a re-analysis of the deposited data

Results flagged for a closer look

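Slc7a2 ran opposite ways between days 3 and 7 in the 2 tissues. In adhesion tissue its day 7 value was 0.224 times the day 3 value (0.187 to 0.267, 160 reads against 635), and in heart it was 1.59 times the day 3 value (1.03 to 2.48, 57 reads against 37). The difference was not tested, since each condition had 1 library, and in CPM the heart interval (0.997 to 2.39) reached below 1. Macrophage marker genes summed to 7498 against 7572 CPM in adhesion tissue and to 1664 against 1328 CPM in heart between the same days (median log2 ratios of the 14 genes -0.36 and 0.14), and their part in the difference was not tested.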

How the results depend on the processing

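No paired analysis was possible because each condition had 1 library. Of 96 counts of members under other settings, 80 stayed within 1.5 times the reported count, as did 209 of 210 log2 ratios of single members within their counting intervals and all 42 ratios between tissues. At 3-fold in heart, the members higher at day 7 over day 0 became 1 with a pseudocount of 5. In adhesion tissue the 1 member higher at day 7 over day 1, Asl, became 0 with a pseudocount of 5, in CPM and in CPM without muscle, erythroid and ribosomal precursor genes, and with edgeR TMM factors 1 became higher at day 3 over day 1. The log2 ratio of Arg1 at day 3 over day 1 in adhesion tissue was 1.16 with TMM factors, against 1.07 as reported. At a 2-fold threshold, 2 members were lower in heart at day 7 over day 3, and in adhesion tissue at day 3 over day 1, 3 were higher and 2 lower. Counting instead the intervals that leave out 1, heart had 4 higher and 1 lower at day 3 over day 0, 2 lower at day 7 over day 0, and 1 higher and 3 lower at day 7 over day 3, and adhesion tissue 3 higher and 2 lower at day 3 over day 1 and 5 lower at day 7 over day 1. Without division by length the Arg1 to Nos2 ratio was 19.6 at day 1, 33.4 at day 3 and 8.73 at day 7 in adhesion tissue. In heart it was 0.167 at day 0, 2.55 at day 3 and 1.29 at day 7. Of these 6 ratios 5 lay outside the counting interval of the ratio per kilobase. Of 168 member ratios under the 4 other scalings, 7 intervals moved to the other side of 1 (Oat in 5, Asl and Slc7a2 in 1 each) and 3 directions turned, none with an interval that left out 1. Counts over all genes depend on how low reads are treated: the 12 reported counts, between 245 and 1136, came to between 12 and 479 with a pseudocount of 5, between 54 and 723 with at least 10 reads, and between 1032 and 2494 at 2-fold. The 306 genes lower in adhesion tissue at day 7 over day 3 became 474 with TMM or DESeq2 factors and 485 in CPM without muscle, erythroid and ribosomal precursor genes, where 62.2% of called genes were higher, against 72.8% as reported. CPM moved all heart ratios at day 3 over day 0 by 0.17 and at day 7 over day 0 by 0.12 in log2. Depth limits Arg2 in heart and Arg1 and Asl in the day 0 heart, each at 2 reads, under the floor of 3.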
